A study of Mus musculus with 9 samples.

Results

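The fast-twitch sarcomere genes described here are 10 genes that encode contractile proteins of fast muscle fibres: Myh4, Myh1, Myh2, Myl1, Mylpf, Mybpc2, Tnnt3, Tnni2, Tnnc2 and Actn3. They were taken from the deposited expression table by gene symbol, from a list of names, and make up 10 of its 18062 genes and 18 of its 23665 transcripts. Myl1 was listed as 2 transcripts, Tnnt3 as 8 and each other gene as 1.

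RNA was sequenced from mouse white gastrocnemius, the pale portion of a calf muscle. The knock-out group, a model of the glycogen storage disorder Pompe disease, lacked acid alpha-glucosidase (Gaa), the lysosomal enzyme that breaks down glycogen, through a disruption of exon 6 with LOX P sites in introns 5 and 6. It held 5 libraries from mice at 5 months of age, and the wild-type group held 2 libraries at 5 months and 2 at 6 months. All samples were labelled as of mixed background, and the knock-out colony (BL6/129j) was inbred for over 20 generations. The labels name no Cre driver and no drug treatment. The 4 wild-type value columns, named wt1 to wt4, do not show which age each is, so the ages were used together. The labels give library numbers but no mouse identities, so a p-value reflects how far these libraries spread, which may be technical. The sources used here name no library or sequencing batch, so batch and genotype cannot be told apart.

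A sarcomere shortens when myosin heads of the thick filament pull on actin of the thin filament. Myosin heavy chains carry the motor, and light chains stiffen and tune its lever arm. The troponin complex, made of a tropomyosin-binding subunit (T), an inhibitory subunit (I) and a calcium-binding subunit (C), opens the thin filament when calcium rises. Most of these proteins exist in a fast and a slow form from separate genes, and the white gastrocnemius of the mouse consists mainly of fast glycolytic fibres that use the fastest heavy chain, myosin IIb. The ranking of heavy chains by speed runs from the slow chain Myh7 through IIa (Myh2) and IIx (Myh1) to IIb (Myh4).

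Values are RPKM, read counts that the authors scaled to transcript length and library size, and were summed over the transcripts of a gene. Tests used limma on log2(RPKM + 0.1) with Benjamini-Hochberg adjustment over 11032 genes, and a gene was called at an adjusted p below 0.05. Gaa, the targeted gene, matched the labels, at 3.11 to 3.64 RPKM in knock-out libraries and 46.0 to 56.0 RPKM in wild-type libraries (log2 fold change -3.80, SE 0.07, limma adjusted p = 1.8e-11; exact two-sided permutation p = 0.0079, the smallest that 126 splits allow). Muscle markers (Ckm, Acta1, Myh4, Pvalb and Mylpf) summed to 59901 to 66002 RPKM in knock-out libraries and 55239 to 59605 RPKM in wild-type libraries. From the spacing of low values, 1 RPKM over 1 kilobase was worth an estimated 17.6 to 37.25 reads in knock-out libraries and 36.95 to 64.4 reads in wild-type libraries. Every member rested on at least an estimated 20940 reads in every library, so counting error was small beside the spread between libraries. RPKM totals were higher in every knock-out library (349239 to 374056) than in any wild-type library (315337 to 327517), and the median gene lay 0.12 higher in knock-out on the log2 scale, so small differences depend on the scaling.

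All 10 genes passed the filter on low values (a mean of at least 0.5 RPKM) and most were among the most abundant genes of the muscle. Tnnt3 had the highest mean level of all 18062 genes, Myh4 ranked 5, Tnnc2 6, Tnni2 7, Mylpf 8, Myl1 12, Actn3 14 and Mybpc2 17. Myh1 ranked 39 and Myh2 101. Together the 10 genes took 19.8% to 21.4% of the summed RPKM in knock-out libraries and 21.8% to 23.5% in wild-type libraries, so every knock-out library lay below every wild-type library in that share.

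In knock-out muscle 3 of the 10 genes were called higher (Myh2, Mylpf and Mybpc2), where 37.0% of all tested genes were called higher. Only Myl1 of the 10 was called lower, where 14.8% of all tested genes were called lower. Both counts are close to the background. The median log2 fold change of the 10 genes was 0.18, beside 0.12 for all tested genes. Myh2 alone was called higher under each of 4 rescalings, against 25.1% of all genes with libraries centred on their median, 22.0% with libraries rescaled to equal totals, 20.7% with totals taken without the 100 most abundant genes and 24.8% with the trend with transcript length removed. Under quantile normalization 2 of the 10 genes were called higher (Myh2 and Actn3), against 24.0% of all genes. Lower calls numbered 1 to 3 of the 10 under these 5 rescalings, against 24.2% to 30.6% of all genes (25.0% with centring, 25.5% with equal totals, 27.7% with quantile normalization). The genes moved in both directions, so they are described one by one, by their role. In bulk RNA, fewer fibres of a type and less RNA per fibre cannot be told apart.

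**Figure D1:**
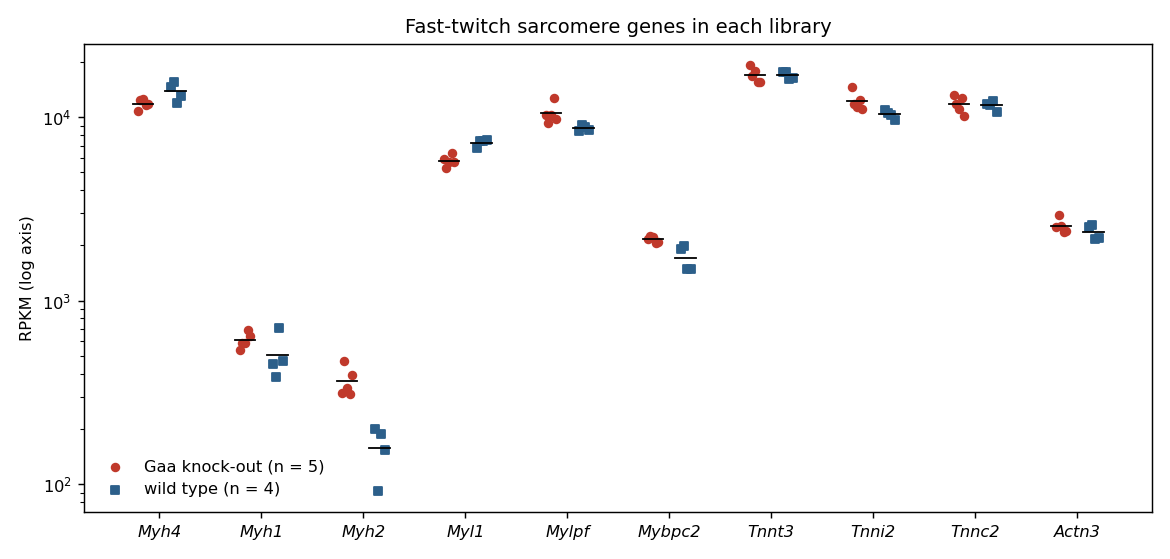
RPKM of the 10 fast-twitch sarcomere genes in each library, on a log axis; red circles are the 5 knock-out libraries, blue squares the 4 wild-type libraries and bars the means. Myh2 lay at 308 to 471 RPKM in knock-out and 92.2 to 200 RPKM in wild type, while the Tnnt3 means were 16977 RPKM in knock-out and 16963 RPKM in wild type.

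Myh2, which encodes the IIa heavy chain of fast oxidative fibres, rose in knock-out muscle. It had 313, 471, 335, 308 and 393 RPKM in the 5 knock-out libraries, against 200, 92.2, 187 and 153 RPKM in the 4 wild-type libraries. All knock-out values lay above all wild-type values, a pattern met by 30.9% of tested genes. The means were 364 ± 69 RPKM in knock-out (SD, n = 5) and 158 ± 48 RPKM in wild type (SD, n = 4), a 2.37-fold difference (95% CI 1.74 to 3.24, log2 fold change 1.25, SE 0.21, limma adjusted p = 3.7e-04). Myh2 was called higher under all 21 alternative settings tried, with log2 fold changes of 0.99 to 1.38.

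Myh4, which encodes the IIb heavy chain of fast glycolytic fibres, was not called. Its level was 10778, 12463, 12637, 11660 and 11836 RPKM in knock-out libraries, against 14690, 15619, 11885 and 13125 RPKM in wild-type libraries. The groups overlapped through wild-type library wt3 alone, whose value lay inside the knock-out range. The means were 11875 ± 738 RPKM in knock-out and 13830 ± 1655 RPKM in wild type, a log2 fold change of -0.21 (95% CI -0.42 to -0.0038, SE 0.10, limma adjusted p = 0.082). Without wt3 the log2 fold change was -0.28 and Myh4 was called lower (limma adjusted p = 0.026). It was also called lower with libraries centred on their median (-0.34, adjusted p = 0.017), rescaled to equal totals (-0.37, adjusted p = 0.0046) or rescaled without the 100 most abundant genes (-0.41, adjusted p = 0.0039). In all, Myh4 was called under 4 of 21 alternatives. It was not called with quantile normalization (-0.27, limma adjusted p = 0.056) or the length trend removed (-0.22, adjusted p = 0.065). Without wt2 the log2 fold change was -0.15 (adjusted p = 0.23).

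Myh1, which encodes the IIx heavy chain, lies between IIa and IIb in speed. It had 540, 587, 591, 692 and 640 RPKM in knock-out libraries, against 454, 382, 707 and 468 RPKM in wild-type libraries. Again wt3 stood apart, since it held the highest Myh1 value of all 9 libraries while the other wild-type libraries lay below every knock-out library. Myh1 was not called (610 ± 58 RPKM in knock-out, 503 ± 141 RPKM in wild type, log2 fold change 0.31, SE 0.15, limma adjusted p = 0.094). Without wt3 it was called higher (log2 fold change 0.49, limma adjusted p = 0.0012), the only call in 21 alternatives. Without wt2 the log2 fold change was 0.19 (limma adjusted p = 0.27). It was 0.19 with libraries centred on their median (adjusted p = 0.28) and 0.15 with quantile normalization (adjusted p = 0.37). It came to 0.15 with equal totals (adjusted p = 0.41) and 0.12 without the 100 most abundant genes (adjusted p = 0.51). With the length trend removed it was 0.30 (adjusted p = 0.084). The library wt3 was also the deepest sequenced, at an estimated 64.4 reads per RPKM and kilobase. Its part in these differences was not tested.

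Proportions within a library do not depend on how libraries are scaled. Of the summed RPKM of Myh4, Myh1, Myh2 and Myh7, Myh2 held 2.69%, 3.47%, 2.47%, 2.43% and 3.04% in knock-out libraries, against 1.304%, 0.573%, 1.46% and 1.11% in wild-type libraries. The slow chain Myh7 held 0.114% to 0.398% in knock-out and 0.0163% to 0.108% in wild type. Both shares were higher in every knock-out library than in any wild-type library. Myh1 held 4.33% to 5.46% in knock-out and 2.37% to 5.53% in wild type, and Myh4 held 91.6% to 93.0% in knock-out and 92.9% to 97.0% in wild type; these 2 shares overlapped between the genotypes, in both cases through wt3. Myh4 was the main heavy chain transcript in every library of both groups.

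**Figure D2:**
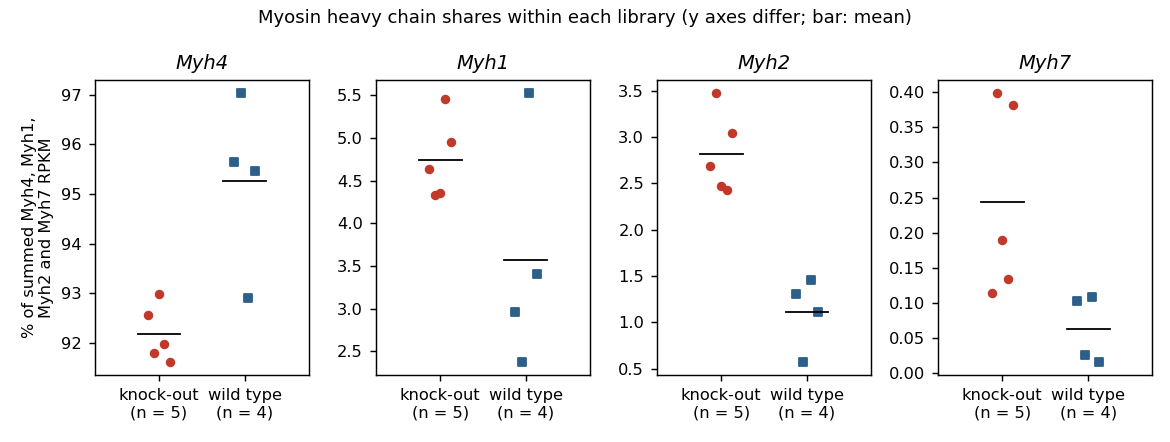
Share of each heavy chain gene in the summed RPKM of Myh4, Myh1, Myh2 and Myh7, in percent, with 1 point per library, red circles for knock-out, blue squares for wild type and bars for means; the y axes differ. Myh2 held 2.43% to 3.47% in knock-out and 0.573% to 1.46% in wild type, and Myh4 held 91.6% or more in every library.

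Ratios between the heavy chains were read in the same way. The Myh4 to Myh2 ratio was 34.4, 26.4, 37.7, 37.8 and 30.1 in knock-out libraries, against 73.4, 169, 63.6 and 86.0 in wild-type libraries. Myh1 to Myh2 stood at 1.25 to 2.25 in knock-out and 2.27 to 4.15 in wild type. Neither ratio overlapped between the genotypes, whereas the Myh4 to Myh1 ratio did, at 16.8 to 21.4 in knock-out and 16.8 to 40.9 in wild type. The 3 genes share long stretches of sequence: of all 50-base words of the transcript, 26.7% of those of Myh1, 26.7% of those of Myh2 and 18.6% of those of Myh4 occur in another of Myh1, Myh2, Myh3, Myh4, Myh7 and Myh8. Where the authors' assignment could split such reads, part of the Myh2 signal cannot be told from that of its more abundant neighbours.

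Myh2, Myh1 and Myh4 lie side by side on chromosome 11 and are shown here by their promoters, since they are neighbours of 1 family that differed in their values. The stretches run from 250 bases before to 50 bases after the annotated start, in RefSeq on GRCm38.p6, plus strand, at chr11:67170777-67171076 for Myh2, chr11:67199852-67200151 for Myh1 and chr11:67237562-67237861 for Myh4. Capitals mark a 20-base run that the 3 promoters share and the letters TATAAAAG, the core of a TATA box.
Myh2: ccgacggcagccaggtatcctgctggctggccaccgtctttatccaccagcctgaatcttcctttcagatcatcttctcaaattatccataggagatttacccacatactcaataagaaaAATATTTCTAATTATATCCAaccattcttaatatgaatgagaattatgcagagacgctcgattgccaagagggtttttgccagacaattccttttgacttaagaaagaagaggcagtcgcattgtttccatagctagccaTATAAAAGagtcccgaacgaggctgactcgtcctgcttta
Myh1: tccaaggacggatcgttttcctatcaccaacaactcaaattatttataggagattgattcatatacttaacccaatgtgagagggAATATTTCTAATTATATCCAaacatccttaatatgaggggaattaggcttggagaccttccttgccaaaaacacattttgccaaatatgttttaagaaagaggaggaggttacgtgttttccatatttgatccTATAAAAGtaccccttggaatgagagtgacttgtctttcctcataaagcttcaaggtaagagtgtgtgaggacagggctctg
Myh4: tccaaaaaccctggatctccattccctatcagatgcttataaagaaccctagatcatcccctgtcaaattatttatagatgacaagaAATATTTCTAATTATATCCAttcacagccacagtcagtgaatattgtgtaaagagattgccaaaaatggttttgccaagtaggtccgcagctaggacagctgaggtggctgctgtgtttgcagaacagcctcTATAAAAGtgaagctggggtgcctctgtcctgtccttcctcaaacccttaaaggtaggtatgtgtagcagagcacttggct

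The shared run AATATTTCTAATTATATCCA starts 130 bases before the annotated start in Myh2, 165 in Myh1 and 163 in Myh4. Searched on both strands, it was found in 3 of 32851 promoters (0.00913%), those of these same genes. TATAAAAG begins 32 bases before the start in Myh1 and 31 in Myh4, and lies after the annotated start in Myh2, at base 10; on either strand it is present in 1.70% of all promoters. The run and TATAAAAG do not overlap and stand 120 bases apart in Myh2, 113 in Myh1 and 112 in Myh4. The E-box CANNTG, the core bound by myogenic factors such as MyoD, occurs 3 times in this window of Myh4 and not in those of Myh2 or Myh1, and 72.3% of all promoters hold at least 1 on either strand. These matches describe letters and are not evidence of binding.

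Myl1 encodes the essential light chains of fast myosin, and fell in knock-out muscle. It had 5912, 5269, 5673, 6383 and 5667 RPKM in knock-out libraries, against 6777, 7417, 7433 and 7505 RPKM in wild-type libraries. Every knock-out value lay below every wild-type value, as for 11.4% of tested genes. The means were 5781 ± 408 RPKM in knock-out and 7283 ± 340 RPKM in wild type, and the knock-out level was 0.793 of the wild-type level (95% CI 0.707 to 0.889, log2 fold change -0.33, SE 0.08, limma adjusted p = 0.0030). The call was kept under 20 of 21 alternatives and lost when the filter on low values was dropped (adjusted p = 0.095).

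Myl1 makes 2 proteins from 2 start sites, the longer MLC1F and the shorter MLC3F, which lacks the N-terminal extension that reaches actin. The transcript of MLC3F, NM_001113387, was the more abundant, at 4724 ± 326 RPKM in knock-out and 5726 ± 244 RPKM in wild type (log2 fold change -0.28, SE 0.07, limma adjusted p = 0.0099 over 13159 transcripts). The transcript of MLC1F, NM_021285, stood at 1057 ± 127 RPKM in knock-out and 1556 ± 192 RPKM in wild type (log2 fold change -0.56, SE 0.10, limma adjusted p = 0.0015). Both fell, with every knock-out library below every wild-type library, where 12.2% of tested transcripts were called lower and 9.95% had all knock-out values below all wild-type values. NM_021285 made up 16.6% to 19.8% of Myl1 in knock-out and 19.1% to 23.4% in wild type, so its share overlapped between the groups. Where the 2 transcripts share sequence, their separate levels and fold changes depend on how the authors' software split common reads between them. That step is unknown, and its part in the excess of NM_001113387 and the larger fall of NM_021285 was not tested.

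Mylpf, the regulatory light chain of fast fibres that is phosphorylated on contraction, was called higher but near the threshold. It had 10306, 9360, 10342, 12685 and 9754 RPKM in knock-out libraries, against 8379, 9074, 8896 and 8532 RPKM in wild-type libraries. All knock-out values lay above all wild-type values, and knock-out library ko4 was the highest. The means were 10489 ± 1294 RPKM in knock-out and 8720 ± 320 RPKM in wild type (log2 fold change 0.26, SE 0.09, limma adjusted p = 0.037). The call was kept under 8 of 21 alternatives, and of the fits that left out a library only those without ko2 or ko5 kept it (adjusted p from 0.026 to 0.085 over the 9 fits). With the trend with transcript length removed the log2 fold change was -0.03 (adjusted p = 0.78). As a share of the RPKM total, Mylpf overlapped between the groups, at 2.51% to 3.52% in knock-out and 2.56% to 2.77% in wild type.

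Mybpc2 encodes the fast form of myosin-binding protein C, which links the thick filament to actin. It was called higher, with 2156, 2252, 2221, 2069 and 2083 RPKM in knock-out libraries, against 1913, 1975, 1483 and 1482 RPKM in wild-type libraries. The wild-type values fell into a higher pair, wt1 and wt2, and a lower pair, wt3 and wt4, and all 4 lay below every knock-out value. For Myh4, Tnnt3, Tnni2 and Actn3, wt1 and wt2 also both lay above wt3 and wt4. For Myh1 and Myl1 they both lay below, and for Myh2, Mylpf and Tnnc2 the pairs did not separate. The wild-type columns show no age, so whether these pairs are the mice of 5 and 6 months cannot be told. The 1.27-fold difference (95% CI 1.10 to 1.47, log2 fold change 0.34, SE 0.09, limma adjusted p = 0.0098) was called in each of 9 fits that left out a library. It was lost under all 5 rescalings, where the log2 fold change ran from -0.01 with quantile normalization to 0.25 with the length trend removed.

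**Figure D3:**
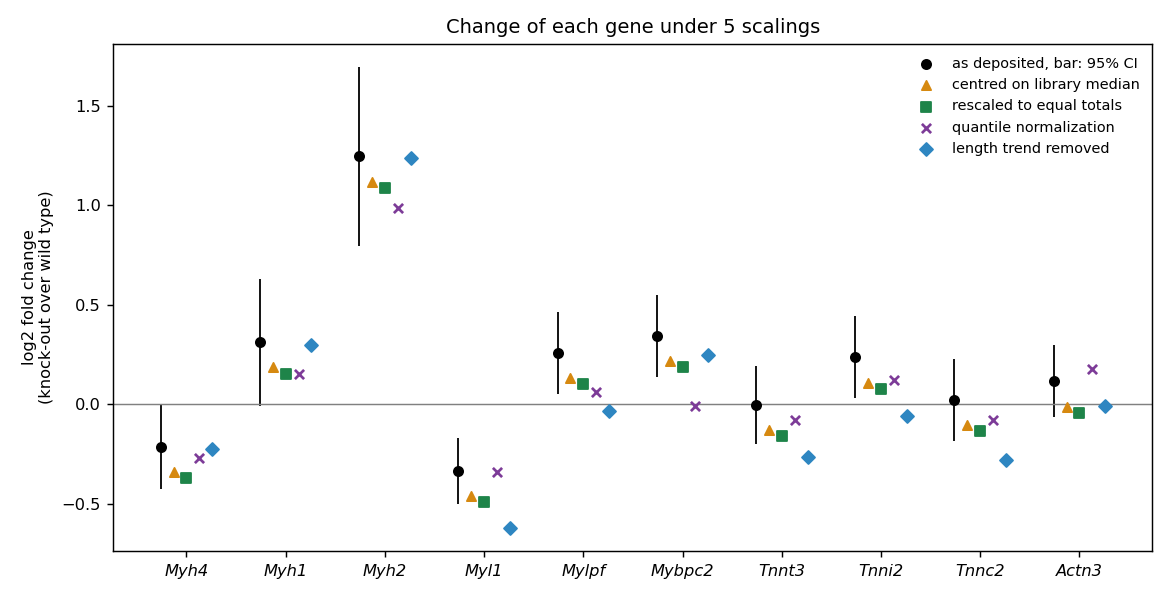
Log2 fold change of each gene, knock-out over wild type, as deposited (black circles, with bars for the 95% CI) and under 4 of the rescalings (coloured marks). Myh2 lay near 1 or above under every scaling shown and Myl1 below 0 under every one, while Mylpf, Mybpc2, Tnni2, Tnnc2 and Actn3 had marks on both sides of 0.

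Tnnt3, Tnni2 and Tnnc2 form the fast troponin complex, and none of them was called at the level of the whole gene. Tnnt3, the subunit that binds tropomyosin, had 19208, 16698, 17858, 15488 and 15635 RPKM in knock-out libraries, against 17681, 17643, 16081 and 16446 RPKM in wild-type libraries. The groups overlapped almost fully, with means of 16977 ± 1569 RPKM in knock-out and 16963 ± 821 RPKM in wild type (log2 fold change -0.00, 95% CI -0.20 to 0.19, limma adjusted p = 0.98). It was called lower with the length trend removed (-0.27, adjusted p = 0.019) and when only its most abundant transcript was used (-0.20, adjusted p = 0.0497).

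Tnni2, the subunit that holds the thin filament off without calcium, had 14610, 11859, 11389, 12475 and 11025 RPKM in knock-out libraries, against 10960, 10595, 10263 and 9700 RPKM in wild-type libraries. Its groups did not overlap, with ko5 as the lowest knock-out library just above wt1 as the highest wild-type library. It was not called (12272 ± 1415 RPKM in knock-out, 10380 ± 535 RPKM in wild type, log2 fold change 0.24, SE 0.09, limma adjusted p = 0.054), and was called under 4 of 21 alternatives, 1 of them the fit without ko5 (adjusted p = 0.041). Tnnc2, the calcium-binding subunit, had 13286, 11782, 11147, 12767 and 10117 RPKM in knock-out libraries, against 11753, 11709, 12221 and 10691 RPKM in wild-type libraries. These values overlapped (11820 ± 1265 RPKM in knock-out, 11593 ± 645 RPKM in wild type, log2 fold change 0.02, SE 0.09, limma adjusted p = 0.85), and the sign turned with the scaling, to -0.28 with the length trend removed (adjusted p = 0.0057).

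Beneath the level sum of Tnnt3, its transcripts differed between the genotypes. Tnnt3 is spliced in several ways near its start, where the exons 4, 6, 7, 8 and F (the fetal exon, between exons 8 and 9) can each be left out, and near its end, where exon 16 or 17 is used. Of 8 Tnnt3 transcripts in the table, 6 were called higher in knock-out, where 31.0% of 13159 tested transcripts were called higher. Each of the 6 was more than 2-fold higher, as were 5.12% of all tested transcripts, and had all knock-out values above all wild-type values, as did 26.7%. The 2 most abundant transcripts, NM_011620 and NM_001163665, were not called.

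The variable stretch is shown for the 5 most abundant transcripts because they differ in it and in their change between the genotypes. It runs from exon 3 to exon 9 at chr7:142501829-142508353 on GRCm38, plus strand, introns removed, as in the GENCODE transcripts of these RefSeq entries. Capitals mark the optional exons 4 (18 bases), 6 (15 bases), 7 (12 bases), 8 (15 bases) and F (39 bases).
NM_011620: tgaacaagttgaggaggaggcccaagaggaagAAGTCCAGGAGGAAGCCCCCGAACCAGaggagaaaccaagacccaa
NM_001163665: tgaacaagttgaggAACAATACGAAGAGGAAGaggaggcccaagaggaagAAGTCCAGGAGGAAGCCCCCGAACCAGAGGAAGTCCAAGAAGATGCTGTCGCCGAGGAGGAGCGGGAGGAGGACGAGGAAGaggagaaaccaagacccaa
NM_001163670: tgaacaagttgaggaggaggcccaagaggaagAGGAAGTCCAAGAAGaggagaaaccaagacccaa
NM_001163669: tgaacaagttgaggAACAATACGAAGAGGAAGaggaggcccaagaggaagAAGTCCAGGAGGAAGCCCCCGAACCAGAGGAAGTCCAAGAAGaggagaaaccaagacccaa
NM_001163668: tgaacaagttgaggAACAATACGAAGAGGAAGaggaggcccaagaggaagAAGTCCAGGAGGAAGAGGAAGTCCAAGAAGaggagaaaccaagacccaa

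NM_011620 holds exons 6 and 7 and is the only 1 of the 8 without exon 8. It had 9709, 8647, 9533, 8047 and 8324 RPKM in knock-out libraries, against 10171, 10392, 9779 and 10368 RPKM in wild-type libraries. All knock-out values lay below all wild-type values, with means of 8852 ± 736 RPKM in knock-out and 10177 ± 284 RPKM in wild type (log2 fold change -0.20, SE 0.08, limma adjusted p = 0.059). It was called lower with libraries centred on their median (-0.33, adjusted p = 0.016, where 21.0% of transcripts were called lower and 21.0% higher), rescaled to equal totals (-0.36, adjusted p = 0.0021) and without ko1 (-0.24, adjusted p = 0.035).

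NM_001163665 holds all 5 optional exons at the start and is the only 1 with exon 16. It overlapped between the genotypes, at 5287 ± 815 RPKM in knock-out and 5663 ± 803 RPKM in wild type (log2 fold change -0.10, SE 0.13, limma adjusted p = 0.55).

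NM_001163670, which keeps exon 8 alone of the optional exons at the start, had the largest RPKM difference of the 6. It had 1345, 1488, 1595, 1565 and 1276 RPKM in knock-out libraries, against 580, 445, 614 and 629 RPKM in wild-type libraries (2.58-fold, log2 fold change 1.37, SE 0.11, limma adjusted p = 4.8e-06). NM_001163669, with exons 4, 6, 7 and 8, had 1126, 905, 977, 871 and 970 RPKM in knock-out libraries, against 345, 341, 430 and 384 RPKM in wild-type libraries (2.59-fold, log2 fold change 1.37, SE 0.09, limma adjusted p = 1.0e-06). Neither transcript overlapped between the genotypes. NM_001163668, with exons 4, 6 and 8, had 350 ± 23 RPKM in knock-out and 153 ± 21 RPKM in wild type (log2 fold change 1.20, SE 0.09, limma adjusted p = 2.3e-06).

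The other 3 transcripts that rose were rare. NM_001163666 stood at 53.1 ± 6.5 RPKM in knock-out and 22.2 ± 4.7 RPKM in wild type, NM_001163667 at 7.54 ± 1.00 RPKM in knock-out and 3.51 ± 0.27 RPKM in wild type, and NM_001163664 at 3.99 ± 0.47 RPKM in knock-out and 1.49 ± 0.47 RPKM in wild type. Their log2 fold changes were 1.08 to 1.40. All 6 calls were kept in each of 9 fits that left out a library and under the other 4 settings run on transcripts.

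Shares of the sum of all 8 transcripts do not depend on library scaling. NM_011620 made up 50.5% to 53.4% of Tnnt3 in knock-out libraries and 57.5% to 63.0% in wild-type libraries. NM_001163670 made up 8.62% on average in knock-out and 3.36% in wild type, and NM_001163669 5.72% in knock-out and 2.22% in wild type. The share of NM_001163665 overlapped, at 29.7% to 34.5% in knock-out and 29.8% to 36.2% in wild type.

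**Figure D4:**
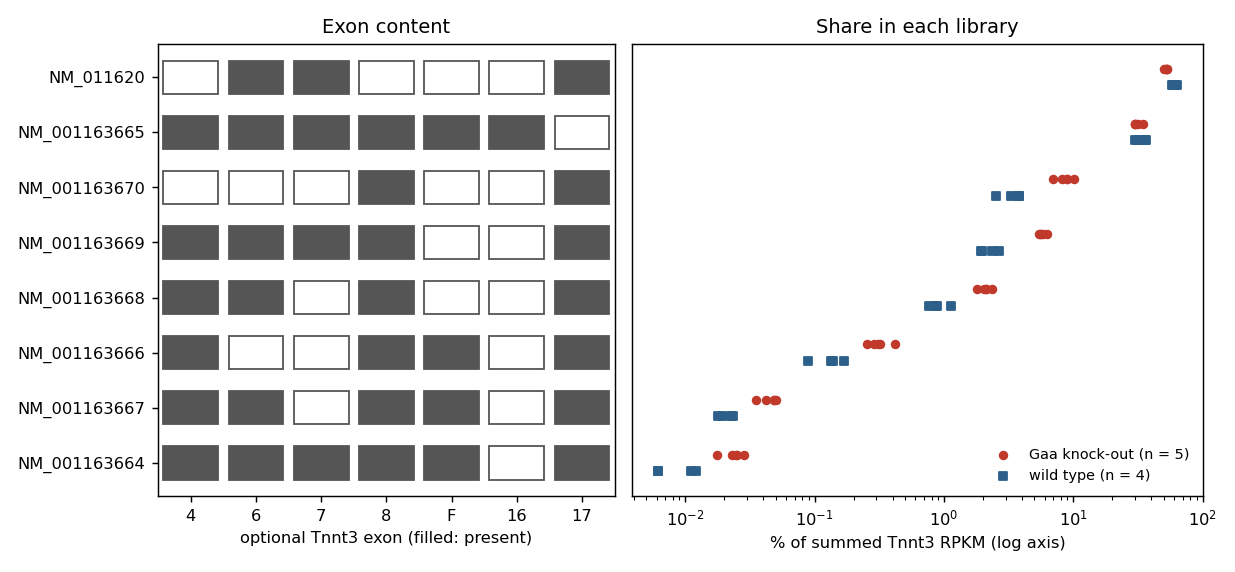
The left panel shows which optional exons each Tnnt3 transcript holds (filled), and the right panel its share of the summed Tnnt3 RPKM in each library, in percent on a log axis, with red circles for knock-out and blue squares for wild type. NM_011620 held 50.5% to 53.4% in knock-out and 57.5% to 63.0% in wild type, and the 6 transcripts below NM_001163665 lay higher in every knock-out library than in any wild-type library.

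Counted by exon, the same transcript values were summed over the transcripts that hold each exon. Exon 8, absent only from NM_011620, was held by transcripts that made up 46.6% to 49.5% of Tnnt3 RPKM in knock-out libraries and 37.0% to 42.5% in wild-type libraries. Exon 7 was in 87.4% to 90.9% in knock-out and 94.9% to 96.6% in wild type, and exon 6 in 89.5% to 92.7% in knock-out and 96.0% to 97.4% in wild type. These 3 exons separated the genotypes in every library, whereas exon 4, the fetal exon and the choice between exons 16 and 17 overlapped. The fetal exon was in 30.1% to 34.8% in knock-out and 29.9% to 36.4% in wild type, and exon 16 in 29.7% to 34.5% in knock-out and 29.8% to 36.2% in wild type. Both figures rest on NM_001163665, the only transcript with exon 16 and the main one with the fetal exon, so they are not separate measures. The exon 8 figure is likewise only the remainder of the NM_011620 share. Exons 6 and 7 are both absent from NM_001163670, the most abundant transcript without either of them. It made up 8.62% on average in knock-out and 3.36% in wild type, so the exon 6 and exon 7 figures are not separate measures either. No reads over single exons were counted. The optional exons are short and the transcripts overlap almost entirely, so these figures rest on how the authors' software divided shared reads, a step not given in the sources used here.

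Actn3, the fast-fibre alpha-actinin that anchors actin at the Z-disc, was not called. It had 2537, 2938, 2546, 2381 and 2413 RPKM in knock-out libraries, against 2523, 2571, 2176 and 2196 RPKM in wild-type libraries, and the groups overlapped. The means were 2563 ± 222 RPKM in knock-out and 2366 ± 210 RPKM in wild type (log2 fold change 0.12, 95% CI -0.07 to 0.30, limma adjusted p = 0.26).

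Of the 10 fast genes, 8 were also set against a slow counterpart in the same library, with Myh4 standing for the heavy chains. All 8 slow counterparts were called higher in knock-out at far lower levels than their fast partners, where 37.0% of tested genes were called higher. Tnnt1, the slow troponin T, had 34.2, 73.8, 59.7, 40.6 and 78.1 RPKM in knock-out libraries, against 24.1, 8.84, 20.0 and 3.995 RPKM in wild-type libraries (log2 fold change 2.24, SE 0.46, limma adjusted p = 0.0016). Actn2 (199 ± 26 RPKM in knock-out and 111 ± 23 RPKM in wild type) and Mybpc1 (249 ± 23 RPKM in knock-out and 137 ± 21 RPKM in wild type), which are not restricted to slow fibres, were the other 2 whose groups did not overlap. Myh7, Myl2, Myl3, Tnni1 and Tnnc1 were called higher with log2 fold changes of 0.83 to 2.24, but ko1, the lowest knock-out library for each of these 5, lay inside the wild-type range. In these 5 genes and in Tnnt1 the wild-type libraries ranked wt1, wt3, wt2 and wt4 from high to low. Actn2 and Mybpc1 also had ko1 as the lowest knock-out library, but ranked the wild-type libraries in other orders. The 8 calls therefore share part of 1 pattern of libraries and are not all separate results.

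Because a ratio of 2 genes within a library is free of library scaling, it is given for each pair as a description. Myh4 to Myh7 stood at 809, 230, 490, 688 and 241 in knock-out libraries, against 933, 3739, 858 and 5870 in wild-type libraries. Tnnt3 to Tnnt1 stood at 561, 226, 299, 382 and 200 in knock-out libraries, against 734, 1996, 802 and 4116 in wild-type libraries. For these pairs and for Actn3 to Actn2 (10.9 to 14.8 in knock-out, 17.7 to 31.2 in wild type), every knock-out library lay below every wild-type library.

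The other 5 ratios overlapped, in each case through ko1 and, for the pairs of Mylpf and Myl1, also through ko4. Tnni2 to Tnni1 ran from 298 to 1073 in knock-out and from 720 to 6991 in wild type, and Tnnc2 to Tnnc1 from 164 to 636 in knock-out and from 541 to 3091 in wild type. Mylpf to Myl2 ran from 91.2 to 226 in knock-out and from 158 to 541 in wild type. Myl1 to Myl3 ran from 66.9 to 161 in knock-out and from 147 to 404 in wild type, and Mybpc2 to Mybpc1 from 8.05 to 9.96 in knock-out and from 9.66 to 18.5 in wild type. The mean was lower in knock-out for all 8 ratios, which are not separate measures where their slow genes rank the libraries alike. The 8 slow genes made up 0.697% to 1.28% of the summed RPKM of fast and slow genes in knock-out libraries and 0.345% to 0.602% in wild-type libraries, so fast transcripts made up nearly all of it in both.

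**Figure D5:**
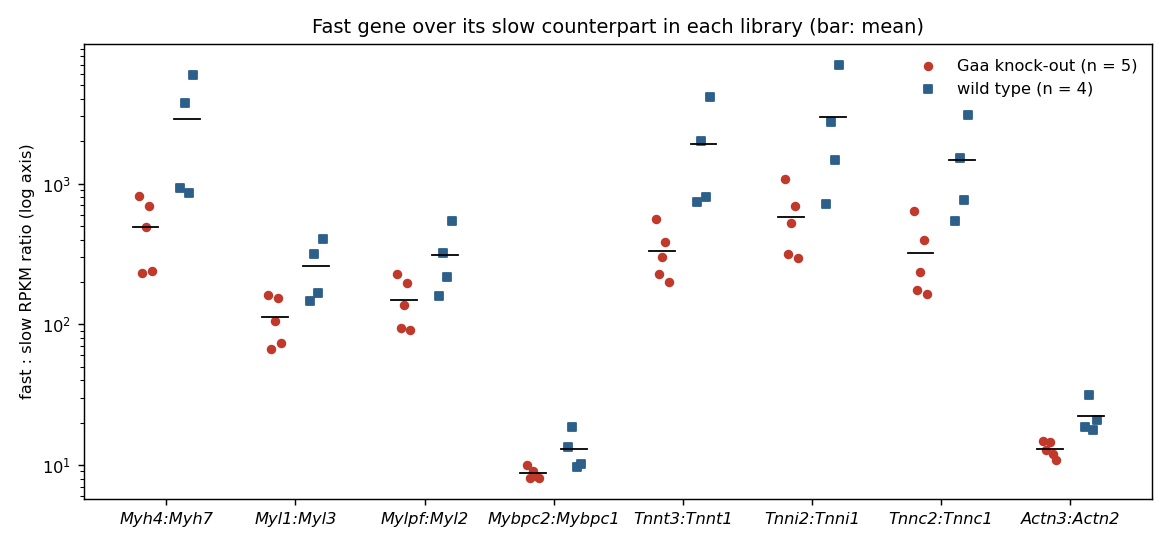
Ratio of the RPKM of 8 fast genes to that of their slow counterparts in each library, on a log axis, with red circles for the 5 knock-out libraries, blue squares for the 4 wild-type libraries and bars for means. Myh4 to Myh7 lay at 230 to 809 in knock-out and 858 to 5870 in wild type, and Mybpc2 to Mybpc1 at 8.05 to 9.96 in knock-out and 9.66 to 18.5 in wild type.

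Other genes of the same fibres were counted by list, beside the background of 37.0% of genes called higher and 14.8% called lower. Slow-twitch sarcomere genes were called higher for 9 of 9 tested and lower for 0, with a median log2 fold change of 1.25, and 7 to 8 were called higher under the 5 rescalings. This list holds the 8 slow counterparts above, so its calls are not separate results either. Sarcomere genes common to fast and slow fibres or of other classes were called higher for 10 and lower for 4 of 28 (median 0.07), but for 8 and 12 without the 100 most abundant genes in the totals and for 7 and 14 with quantile normalization. Among these Murc, a caveolar coat protein of muscle, and Lmod2, which builds actin filaments, were higher (log2 fold changes of 0.80 and 1.32), while Myom2, an M-band protein, and Mylk2, the kinase that phosphorylates the fast regulatory light chain, were lower (-0.18 and -0.37). Developmental and cardiac sarcomere genes were called higher for 5 and lower for 0 of 6 tested (median 0.92), under every rescaling too. The tested gene that was not called was the developmental heavy chain Myh3, named after its values were seen. It had 1.01 ± 0.38 RPKM in knock-out and 1.04 ± 0.25 RPKM in wild type (log2 fold change -0.07, limma adjusted p = 0.81). Named by the smallest p, Myl6b stood at 3.91 ± 0.64 RPKM in knock-out and 2.47 ± 0.30 RPKM in wild type, and Myl4 at 8.55 ± 2.23 RPKM in knock-out and 3.70 ± 1.24 RPKM in wild type. Actc1, the cardiac actin, which both of these lists hold, was the most abundant developmental one at 155 ± 51 RPKM in knock-out and 60.2 ± 39.4 RPKM in wild type, and is named here after its values were seen.

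Genes of calcium handling and of energy supply in fast fibres were called higher for 6 and lower for 5 of 18 (median 0.01), and for 2 and 7 with libraries centred on their median. Higher were the glycolytic enzymes Gapdh (247 ± 35 RPKM in knock-out, 152 ± 16 RPKM in wild type) and Pkm2 (1391 ± 76 RPKM in knock-out, 1126 ± 44 RPKM in wild type). Lower were Casq1, which stores calcium in the sarcoplasmic reticulum of fast fibres (986 ± 59 RPKM in knock-out, 1314 ± 91 RPKM in wild type), and Phkg1, the catalytic subunit of muscle phosphorylase kinase (133 ± 4 RPKM in knock-out, 169 ± 1 RPKM in wild type). Oxidative fibre genes were called higher for 3 and lower for 1 of 10 (median 0.06), but for 1 and 2 to 4 under the 5 rescalings. Among them as deposited were the small heat shock protein Hspb7 (log2 fold change 2.50), the fatty acid transporter Cd36 (0.35) and Tfam, which maintains mitochondrial DNA (-0.35).

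Transcription factors and cofactors were listed for fibre type, though not all of them are known to set it. Of 28 tested, 12 were called higher and 7 lower (median 0.03). With libraries centred on their median the counts were 7 and 9. Nfatc2, a calcineurin-controlled factor, had 4.17 ± 0.37 RPKM in knock-out and 1.80 ± 0.22 RPKM in wild type (log2 fold change 1.17, SE 0.10, limma adjusted p = 1.8e-06). Tead4, which binds MCAT elements of muscle genes, had 2.94 ± 0.32 RPKM in knock-out and 1.46 ± 0.20 RPKM in wild type. Their relatives on the list, named after their values were seen, did not all move alike. Nfatc3 (log2 fold change -0.30, limma adjusted p = 0.0050) and Tead1 (-0.37, limma adjusted p = 5.4e-04) were called lower. Nfatc1 was called higher (0.23, limma adjusted p = 0.035) and Nfatc4 was not called. Tead1 was more abundant than Tead4, at 18.1 RPKM in knock-out and 23.3 RPKM in wild type. Sox6, a repressor of slow genes in mouse fast fibres, had 12.0 ± 0.7 RPKM in knock-out and 16.03 ± 1.1 RPKM in wild type (log2 fold change -0.41, SE 0.06, limma adjusted p = 2.2e-04). Srebf1, a regulator of lipid synthesis, had 4.42 ± 0.54 RPKM in knock-out and 13.1 ± 0.2 RPKM in wild type.

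Markers of other cells in muscle moved with genotype as well. Of 12 macrophage markers all were called higher, and they summed to 51.9 to 83.3 RPKM in knock-out libraries and 20.9 to 26.6 RPKM in wild-type libraries. Fibroblast markers summed to 287 to 387 RPKM in knock-out and 182 to 271 RPKM in wild type, with 4 of 8 called higher and 0 lower, and 2 higher with equal totals, without the 100 most abundant genes and with quantile normalization. These counts stand beside the 37.0% of all genes called higher and 14.8% called lower. Endothelial markers (0 of 9 called higher, 6 lower, and 8 lower under the 5 rescalings) summed to 27.2 to 47.5 RPKM in knock-out and 38.2 to 62.3 RPKM in wild type, and adipocyte markers (0 of 6 called higher, 3 lower, and 5 lower under the 5 rescalings) to 181 to 289 RPKM in knock-out and 192 to 318 RPKM in wild type. None of these markers was at 0 in all libraries. The fibroblast and adipocyte sums were of the order of the Myh2 level (308 to 471 RPKM in knock-out, 92.2 to 200 RPKM in wild type). The part of these cells in the differences was not tested.

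The 10 genes did not vary as a single set within a genotype, though some pairs of them did vary together. After the genotype mean was subtracted, the correlation over the 9 libraries was 0.84 between Myh4 and Mybpc2, 0.85 between Tnni2 and Tnnc2, 0.86 between Myl1 and Mylpf and -0.69 between Myh4 and Myh1, on the log2 scale. By the same measure, among 3245 genes with a mean of at least 10 RPKM, the genes most like Myh4 were Klhdc2 (0.95), Tceb3 (0.94), Tln2 (0.94), Ppp2r2d (0.93) and Gpt2 (0.93). Those most like Myh2 were Hadha (0.98), Adamtsl5 (0.94), Gsto1 (0.93), Actn2 (0.93) and Got1 (0.93). These values are descriptions over 9 libraries that share depth and scaling between genes. The genes most like Myh4 and Myh2 were picked as the highest of 3245, which by itself favours high values, and were not tested.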

How the data were processed

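The authors deposited RPKM values for RefSeq transcripts, with libraries as columns. Per the labels' protocols, Trizol RNA went into the Illumina TruSeq kit. Per the submitters' processing notes, Partek 6.6, Bowtie 0.12.7.0 and TopHat 1.3.2 were used with the build mm9. Their roles, the assignment of shared reads, filters and strand are not given in the sources, so overlapping antisense reads cannot be told apart.

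RPKM was summed per symbol. Of 37 symbols turned into dates, 36 were restored by accession. All value columns were used. Genes with a mean of at least 0.5 RPKM were tested on the log2(RPKM + 0.1) scale by limma (version 3.58.1, R 4.3.3; eBayes with trend, two-sided, Benjamini-Hochberg threshold 0.05), 5 knock-out against 4 wild-type libraries, and transcripts likewise. The scale understates changes of low genes. The fit was tested on simulated data. Alternatives were pseudocounts, filters, 5 rescalings, the most abundant transcript, limma settings and leaving out each library. Depth was estimated from steps in low values: 71.0% to 74.6% of those up to 5 reads lay within 0.1 of a whole read, against 20% by chance, too few to recover counts.

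Named are all 10 genes, the slow counterparts, and of each list at most 2 called genes per direction with the smallest p. Some further list genes are named after their values were seen, where the text says so. The genes and lists were chosen with earlier results of these data known. Sequences come from RefSeq promoters (GRCm38.p6; 7 of 10 genes matched) and GENCODE transcripts (GRCm38); no mm9 coordinates are given.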

Additional observations from a re-analysis of the deposited data

Results flagged for a closer look

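Of 90 groups of values read, 2 held a library far from the rest of its group, and chance gives such a gap in about 1 of 20 groups. Myl1 was at 6777 RPKM in wild-type library wt1, where the other 3 wild-type libraries lay between 7417 and 7505 RPKM; all knock-out libraries were lower still. The rare Tnnt3 transcript NM_001163666 was at 64.6 RPKM in knock-out library ko4, where the other 4 knock-out libraries lay between 49.1 and 51.3 RPKM; all wild-type libraries were lower.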

How the results depend on the processing

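Of the 10 genes, the count called higher in knock-out was 3 and became 1 with libraries centred on their median, rescaled to equal totals, rescaled without the 100 most abundant genes or with the length trend removed. The count called lower was 1; it became 0 with no filter, 2 under the first 3 of those rescalings and with the most abundant transcript only, and 3 with the length trend removed. Leaving out 1 library gave 2 to 4 genes higher and 1 to 2 lower, with 2 lower without wt3. Over all tested genes, 4081 were called higher and 1632 lower. Higher calls numbered 2769 with centring, 2432 with equal totals, 2284 without the 100 most abundant genes, 2644 with quantile normalization and 2687 with the length trend removed, and lower calls in the same order 2758, 2809, 3378, 3056 and 2616. Leaving out 1 library gave 3545 to 4083 higher and 1400 to 1597 lower.

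The signs of 6 genes turned in some setting. With the length trend removed Mylpf came to -0.033, Tnni2 to -0.061, Tnnc2 to -0.28 and Actn3 to -0.0081. Tnnc2 also came to -0.10 with centring, -0.079 with quantile normalization, -0.14 with equal totals and -0.17 without the 100 most abundant genes, and Actn3 to -0.011, -0.043 and -0.080 with centring, with equal totals and without those 100 genes. Mybpc2 came to -0.011 with quantile normalization. When 1 library was left out, Tnnt3 ran from -0.048 to 0.030 and Tnnc2 from -0.021 to 0.077. Actn3 was called higher with quantile normalization only (0.18, adjusted p = 0.0033). The cause of these changes was not tested.

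Myh2 was called higher in each setting run. Of 210 gene results under alternatives, 161 kept their direction and side of the threshold. No paired analysis was possible because the labels pair no knock-out library with a wild-type library. Myh1 was called only when wt3 was left out, and the call of Myh4 turned on wt3 and on the scaling.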
